A study of Homo sapiens with 18 samples.

Results

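The expression of the core circadian clock genes was examined in 2 colorectal cancer cell lines exposed to oxaliplatin (OXA) with or without Curcumin. The genes were the 10 listed names PER1, PER2, PER3, CRY1, CRY2, NR1D1, NR1D2, DBP, ARNTL and CLOCK. They were found as non-control spots of a one-colour expression array carrying those names, and accounted for 16 of its 50599 probes and for 10 of its 36204 gene names. HT29 is a human colorectal adenocarcinoma line that is sensitive to OXA, a platinum drug that forms DNA adducts. HTOXAR3 is a single subline derived from HT29 by exposure to rising OXA doses, so that what distinguishes it from HT29 may be particular to that one derivation. Each line was left without drug, treated for 24 h with OXA at the dose set as its own IC50 (10 µM in HT29 and 30 µM in HTOXAR3), or treated for 24 h with that OXA dose plus 10 µM Curcumin, the yellow polyphenol of turmeric. The groups without drug are labelled untreated, and the study's text describes them in one place as vehicle-treated and in another as without treatment. No group received Curcumin alone. The 6 groups had 3 arrays each, labelled as biological replicates, and p-values measure the spread between these cultures.

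The circadian clock is a transcriptional feedback loop that runs in most cells with a period of about a day. The proteins CLOCK and ARNTL (also called BMAL1) bind E-box sequences as a pair and switch on the PER and CRY genes, whose products return to the nucleus and inhibit that pair. A second loop runs through the nuclear receptors NR1D1 and NR1D2 (REV-ERB alpha and beta), which repress ARNTL, while DBP carries the rhythm to output genes by binding D-box sequences. Epithelial cells of the colon hold such a clock, and cultured tumour lines keep it to varying degrees. Here each condition was sampled at 1 time only, so that a change in the level of a clock gene and a change in its phase cannot be told apart, and neither can fewer cells expressing a gene and less RNA per cell.

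Because E-boxes and D-boxes are the sequences through which these genes regulate one another, stretches of their promoters that hold such letters are shown first, as background to which members moved together. All 10 members matched an entry among RefSeq promoters (ARNTL under its present symbol BMAL1), with 15 start sites in all, each given as 250 bases before to 50 bases after the start on GRCh38.p14. Each stretch lies before the start site and reads 5′ to 3′ on the gene's own strand. Capitals mark matches to the E-box CACGTG. They also mark its variant CACGTT on either strand, and the receptor element core TAGGTCA. The D-box TTATGTAA is marked too, and appears in NR1D2 as its reverse complement.
PER1, chr17:8152525-8152624, minus strand: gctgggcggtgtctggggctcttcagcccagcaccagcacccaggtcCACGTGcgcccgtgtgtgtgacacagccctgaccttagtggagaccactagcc
NR1D2, chr3:23945924-23946023, plus strand: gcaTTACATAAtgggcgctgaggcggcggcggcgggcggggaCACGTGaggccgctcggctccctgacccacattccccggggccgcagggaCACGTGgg
NR1D1, chr17:40100705-40100804, minus strand: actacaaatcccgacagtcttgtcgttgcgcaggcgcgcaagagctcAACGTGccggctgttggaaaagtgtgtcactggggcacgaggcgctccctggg
CRY2, chr11:45847285-45847418, plus strand: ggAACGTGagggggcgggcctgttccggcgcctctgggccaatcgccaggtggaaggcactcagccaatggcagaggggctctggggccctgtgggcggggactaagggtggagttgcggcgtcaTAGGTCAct
CRY1, chr12:107093586-107093685, minus strand: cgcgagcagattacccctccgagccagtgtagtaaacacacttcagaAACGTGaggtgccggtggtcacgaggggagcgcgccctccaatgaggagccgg
PER2, chr2:238288755-238288854, minus strand: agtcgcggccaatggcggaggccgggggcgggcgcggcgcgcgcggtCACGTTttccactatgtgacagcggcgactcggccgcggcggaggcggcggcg
The letters CACGTG stood in 2 of the 15 windows, those of PER1 and NR1D2, and in 7.26% of all 35116 promoter windows in the table. CACGTT stood in 5 of the 15, 1 each of PER2, CRY1, CRY2, NR1D1 and CLOCK, and in 5.34% of all promoter windows. The D-box letters were found in 1 window each of NR1D2 and PER3 (0.886% of all promoters), and TAGGTCA in 1 window of CRY2 and, after the start site, 1 of ARNTL (1.85%). The cAMP response element TGACGTCA (1.85% of all promoters) was in none of the 15, and DBP held no searched motif. A match describes the letters, not a bound site, and a missing match says only that these letters are not in this window.

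On the arrays, the brightest probe of each of the 10 members, which gave the values below, was well above background on all 18 arrays. Levels are normalized log2 intensities and may be compared between groups for a gene but not between genes. Over all arrays, 52.4 to 63.6% of the 58717 non-control spots were well above background, the lowest share being that of replicate 2 of untreated HTOXAR3. Of the defining markers, 9 to 12 of 12 colon epithelial markers were well above background on each array, as were 0 to 3 of 8 fibroblast markers and 2 to 3 of 4 endothelial markers, of which CDH5 and VWF were well above background on all 18 arrays. All 5 leukocyte markers on the array were well above background on 17 or 18 arrays, PTPRC (CD45) included, and their summed level was 11.2 to 11.4 (log2) in untreated HT29, 10.6 to 10.6 with OXA and 10.9 to 11.3 with the combination, and 11.6 to 11.7, 11.1 to 11.2 and 11.3 to 11.3 in the same order in HTOXAR3. The part of these markers in the clock gene results was not tested.

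**Figure D1:**
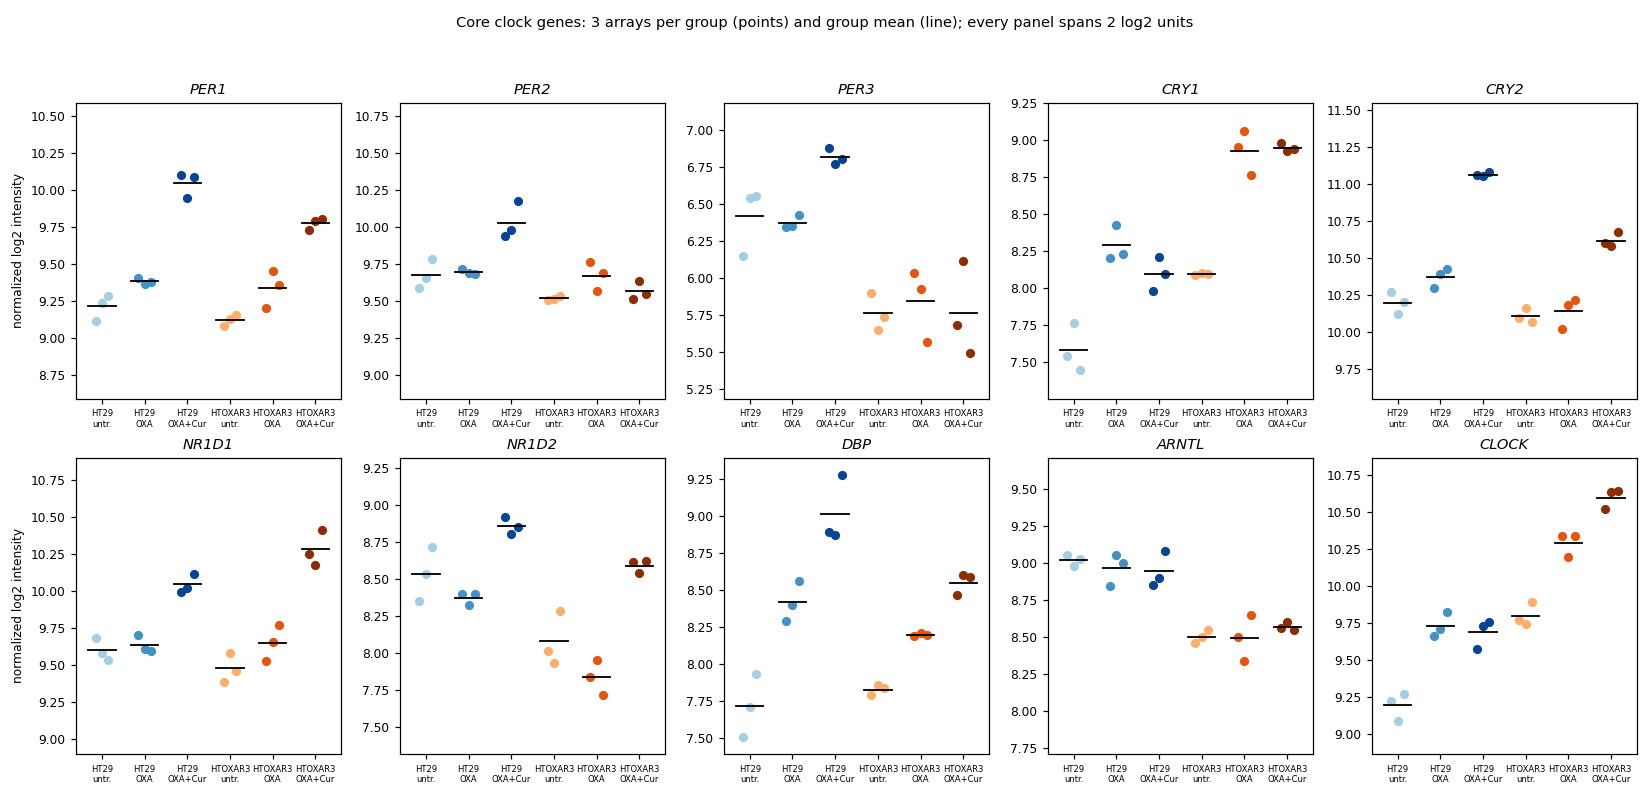
Normalized log2 intensity (vertical axis, every panel spanning 2 log2 units) of the brightest probe of each clock gene on the 3 arrays of each group (points) with the group mean (line). HT29 groups are in blue and HTOXAR3 groups in orange, from untreated to OXA plus Curcumin. PER1, CRY2, NR1D1, NR1D2 and DBP stood highest in each line with OXA plus Curcumin, while ARNTL stood higher on every HT29 array than on any HTOXAR3 array and its groups overlapped within each line.

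In a linear model of all 18 arrays fitted over 36204 gene names, a gene was called when its Benjamini-Yekutieli adjusted p, a correction that holds under any dependence between genes, was below 0.05 and its fold change above 1.2. Over the 7 comparisons between groups this gave 30 called values of 70, of which 29 were higher and 1 lower, and in none of the 30 did the compared groups overlap. All 10 members belong to the 17463 gene names well above background on all 18 arrays (detected gene names below), among which calls were more frequent than among all names, so both shares are given beside the members' counts. No member was called lower under any treatment in either line. The plot of differences with their confidence intervals shows all of these values.

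**Figure D2:**
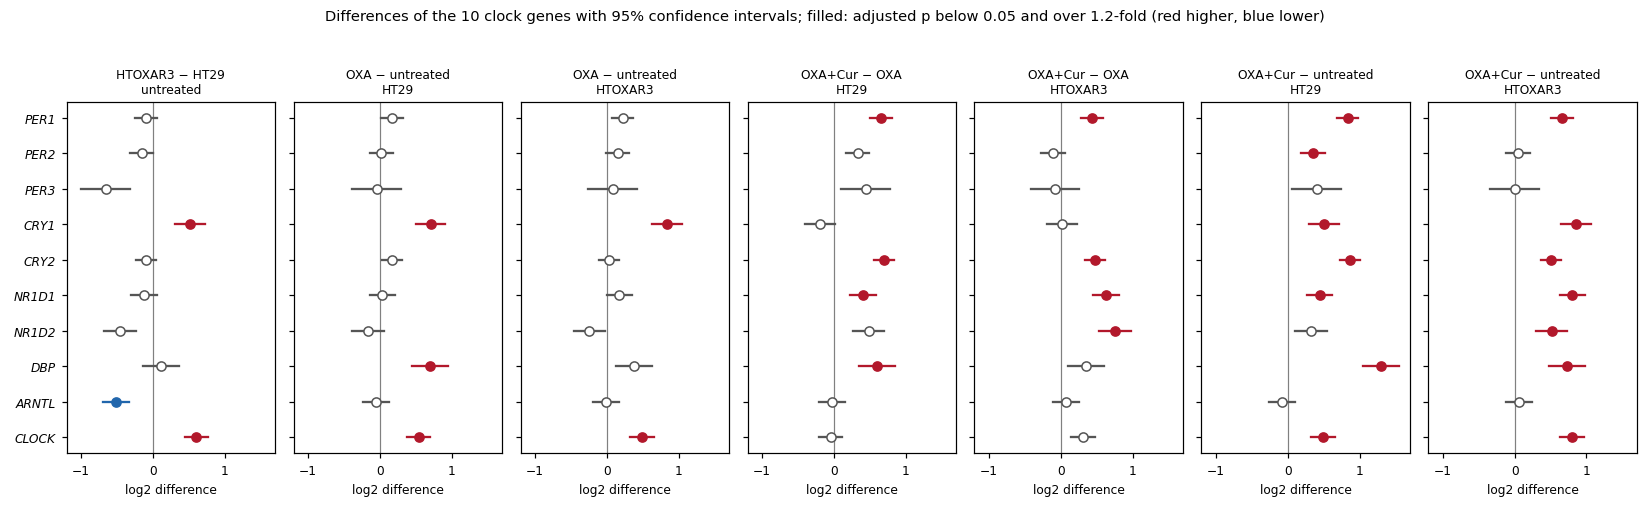
Log2 difference (horizontal axis) with its 95% confidence interval for each clock gene in the 7 comparisons between groups. Filled points were called (red higher, blue lower, adjusted p below 0.05 and over 1.2-fold) and open points were not. CRY1 and CLOCK are filled in both OXA panels, and PER1, CRY2 and NR1D1 in both panels where Curcumin was added.

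The first question was whether the resistant line differed from its parent before treatment. Without drug, HTOXAR3 exceeded HT29 in CRY1 and CLOCK and had less ARNTL. These were 3 of the 10 members, while 11.5% of all gene names (6.26% higher and 5.28% lower) and 21.5% of detected ones were called in this comparison. The median difference over the members was -0.11 against -0.03 over all genes. PER3 (-0.65, adjusted p 0.0878) and NR1D2 (-0.46, adjusted p 0.0519) had non-overlapping groups but missed the threshold.

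Exposure to OXA raised CRY1, DBP and CLOCK in HT29, 3 of the 10 members, where 15.9% of all gene names (8.33% higher) and 31% of detected ones were called. In HTOXAR3, at its higher dose, OXA raised CRY1 and CLOCK, 2 of the 10 members, where 10.2% of all gene names (5.31% higher) and 20% of detected ones were called. The members' counts with OXA were thus near the shares of detected gene names. The CLOCK calls under treatment, here and with the combination, came from 1 of its 2 probes. The other gave 0.22 in HT29 and -0.00041 in HTOXAR3 with OXA, and 0.015 and -0.047 with the combination, none of them called. The median difference over the members was 0.10 in HT29 and 0.16 in HTOXAR3, against -0.01 and 0.01 over all genes. With OXA alone the PER genes, CRY2, NR1D1 and NR1D2 had differences between -0.24 and 0.22, none of them called.

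With Curcumin added to OXA, PER1, CRY2, NR1D1 and DBP rose in HT29 relative to OXA alone, 4 of the 10 members, where 5.53% of all gene names (3.14% higher) and 10.9% of detected ones were called. In HTOXAR3, PER1, CRY2, NR1D1 and NR1D2 rose, also 4 of the 10 members, where 8.83% of all gene names (4.43% higher) and 17.3% of detected ones were called. The median difference over the members was 0.43 and 0.33, against -0.02 in both lines over all genes. In HT29, DBP and NR1D1 lost their calls when any 1 of the 6 arrays compared was left out, which brought the count from 4 to 2, with PER1 and CRY2 keeping theirs.

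Both drugs together against no drug gave the most calls. In HT29, 7 of the 10 members rose (PER1, PER2, CRY1, CRY2, NR1D1, DBP and CLOCK), where 18.6% of all gene names (9.56% higher) and 35.6% of detected ones were called. The CLOCK call there was absent with its other probe (0.015) and with both probes averaged (0.25, adjusted p 0.19). In HTOXAR3, 7 of the 10 rose (PER1, CRY1, CRY2, NR1D1, NR1D2, DBP and CLOCK), where 17.5% of all gene names (8.82% higher) and 33.4% of detected ones were called. The median difference over the members was 0.47 and 0.58, against -0.03 and -0.01 over all genes. With the less strict Benjamini-Hochberg adjustment, 5 members were called between untreated lines (17% of all and 29.9% of detected gene names). With OXA the count was 3 in HT29 (21.9 and 40.2%) and 3 in HTOXAR3 (16.6 and 30.2%). With Curcumin added it was 6 in HT29 (10.2 and 19.3%) and 5 in HTOXAR3 (14.2 and 26.4%), and with the combination 8 in HT29 (25 and 45.5%) and 7 in HTOXAR3 (23.5 and 42.4%). With a minimum of 2-fold in place of 1.2-fold, DBP with the combination in HT29 was the single member called over the 7 comparisons (3.78% of all and 6.09% of detected gene names). The other 6 comparisons then called 2.8 and 4.02% between untreated lines, 3.26 and 5.51% with OXA in HT29, 1.29 and 2.08% with OXA in HTOXAR3, 0.608 and 0.87% with Curcumin added in HT29, 1 and 1.46% with Curcumin added in HTOXAR3, and 3.3 and 5.17% with the combination in HTOXAR3. These comparisons share their untreated arrays with the OXA comparisons and their combination arrays with the Curcumin comparisons, and are not independent of them. All of these calls rest on a spread estimated over the 6 groups. When each fit used only the 6 arrays of the groups it compared, no member was called in untreated lines, with OXA or with added Curcumin, 2 were called for the combination in HT29 (PER1 and CRY2) and 6 for the combination in HTOXAR3 (all but NR1D2).

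Among the activators, CLOCK, a histone acetyltransferase and the DNA-binding partner of ARNTL, had the widest span of group means of all members, 1.40 on the log2 scale. Its levels in HT29 were 9.22, 9.09 and 9.27 without drug, 9.67, 9.71 and 9.83 with OXA, and 9.57, 9.73 and 9.76 with OXA plus Curcumin. In HTOXAR3 they were 9.77, 9.74 and 9.89 without drug, 10.34, 10.20 and 10.34 with OXA, and 10.52, 10.64 and 10.64 with the combination. Untreated HT29 was thus below every other group, and the 3 HTOXAR3 groups did not overlap, while untreated HTOXAR3 overlapped treated HT29. CLOCK was higher in untreated HTOXAR3 by 0.61 ± 0.08 (SE, n = 3 arrays a group, adjusted p 0.000475), rose with OXA by 0.54 ± 0.08 in HT29 (adjusted p 0.00106) and by 0.49 ± 0.08 in HTOXAR3 (adjusted p 0.00418), and with the combination by 0.49 ± 0.08 and 0.80 ± 0.08.

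The 2 CLOCK probes gave different values under treatment. The brightest probe lies at chr4:56301031-56301090 and the other at chr4:56299106-56299165 (GRCh37, minus strand, 1865 bases apart, the brightest nearer the gene's start). The middle 30 of their 60 bases, shown because the 2 probes gave different results, read 5′ to 3′ as follows.
CLOCK brightest probe, bases 16 to 45: ttcagaatgttgtgtgggttcaaattctct
CLOCK other probe, bases 16 to 45: gatggtgaactgtgagtactacttaggttg
The other probe was also well above background on all 18 arrays. It was higher in untreated HTOXAR3 by 0.40 ± 0.08 (SE, adjusted p 0.0369), but its difference with OXA was 0.22 ± 0.08 in HT29 (adjusted p 0.935) and -0.00041 ± 0.085 in HTOXAR3 (adjusted p 1). With the combination its differences were 0.015 ± 0.085 in HT29 and -0.047 ± 0.085 in HTOXAR3, neither called. The higher level in the untreated resistant line was therefore called with both probes. With OXA in HT29 the other probe's groups did not overlap either (8.77 to 8.85 without drug and 8.91 to 9.08 with OXA), and its values for both HTOXAR3 treatments and for the HT29 combination were within their SE of 0. The difference between the probes was not tested.

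ARNTL, the other activator (probe at chr11:13408583-13408642, GRCh37), separated the lines, and it was called under no treatment. It read 9.06, 8.98 and 9.03 in untreated HT29, 8.84, 9.05 and 9.00 with OXA, and 8.85, 8.90 and 9.08 with the combination. In HTOXAR3 it read 8.46, 8.50 and 8.55, then 8.50, 8.34 and 8.65, then 8.56, 8.60 and 8.54. All 9 HT29 arrays were above all 9 HTOXAR3 arrays, and within each line the 3 groups overlapped. The difference between untreated lines was -0.52 ± 0.08 (SE, adjusted p 0.00418, 1.43-fold lower in HTOXAR3), and with treatment its differences ran from -0.08 to 0.07, every adjusted p being 1. The 95% interval for the combination ran from -0.26 to 0.10 in HT29 and from -0.11 to 0.25 in HTOXAR3. The other ARNTL probe was well above background on 1 of 18 arrays, and with both probes averaged the difference between untreated lines missed the threshold (-0.44, adjusted p 0.0549).

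The repressor CRY1, a cryptochrome that blocks CLOCK and ARNTL directly (probe at chr12:107385482-107385541, GRCh37), rose with OXA in both lines. It read 7.54, 7.76 and 7.44 in untreated HT29, 8.20, 8.43 and 8.23 with OXA, and 7.98, 8.21 and 8.09 with the combination. In HTOXAR3 it read 8.09, 8.10 and 8.09 without drug, 8.95, 9.06 and 8.76 with OXA, and 8.98, 8.93 and 8.94 with the combination. Untreated HT29 lay below all other groups and both treated HTOXAR3 groups lay above all others, with untreated HTOXAR3 at the level of HT29 under the combination. The rise with OXA was 0.70 ± 0.10 in HT29 (SE, adjusted p 0.000746, 1.63-fold) and 0.83 ± 0.10 in HTOXAR3 (adjusted p 0.000349, 1.78-fold). The CRY1 difference for Curcumin added to OXA was -0.19 in HT29 and 0.02 in HTOXAR3, not called in either. The higher level in untreated HTOXAR3 (0.51 ± 0.10, adjusted p 0.0151) lost its call on leaving out any 1 of 5 of the 6 arrays, the exception being replicate 2 of untreated HT29. The rise with the combination in HT29 (0.51 ± 0.10) lost it without replicate 1 or 3 of untreated HT29 or replicate 2 of the combination.

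CRY2, the paralogue of CRY1 (probe at chr11:45904680-45904739, GRCh37), was called where Curcumin was present and not with OXA alone. It read 10.27, 10.12 and 10.20 in untreated HT29, 10.30, 10.39 and 10.43 with OXA, and 11.06, 11.05 and 11.08 with the combination. Its HTOXAR3 levels were 10.09, 10.16 and 10.07, then 10.02, 10.19 and 10.22, then 10.60, 10.58 and 10.67. The combination arrays of each line were above all its other arrays, and those of HT29 above those of HTOXAR3. With Curcumin added to OXA, CRY2 rose by 0.69 ± 0.06 in HT29 (SE, adjusted p 0.000112, 1.62-fold) and by 0.48 ± 0.06 in HTOXAR3 (adjusted p 0.00152, 1.39-fold). With OXA alone its difference was 0.17 in HT29 (adjusted p 0.776) and 0.03 in HTOXAR3 (adjusted p 1).

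Of the PER genes, whose proteins form the repressor complex with the cryptochromes, PER1 (probe at chr17:8044267-8044326, GRCh37) had the same order of groups within each line as CRY2. It read 9.12, 9.24 and 9.29 in untreated HT29, 9.40, 9.37 and 9.38 with OXA, and 10.10, 9.95 and 10.09 with the combination. HTOXAR3 arrays gave 9.08, 9.13 and 9.15, then 9.21, 9.46 and 9.36, then 9.73, 9.79 and 9.80. In each line the 3 groups did not overlap and the combination was highest. With Curcumin added to OXA, PER1 rose by 0.66 ± 0.07 in HT29 (SE, adjusted p 0.000349, 1.58-fold) and by 0.44 ± 0.07 in HTOXAR3 (adjusted p 0.00649, 1.35-fold). With OXA alone its differences were 0.17 and 0.22, neither called.

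PER2 (brightest probe at chr2:239152817-239152876, GRCh37) had the narrowest span of group means, 0.51. Its 9 HT29 arrays ran from 9.59 to 10.18 and its 9 HTOXAR3 arrays from 9.50 to 9.76. It was called in 1 comparison, the combination against untreated HT29 (0.35 ± 0.08 SE, adjusted p 0.0245), and this call was lost on leaving out any 1 of 4 of the 6 arrays (replicates 1 and 2 of untreated HT29, replicates 2 and 3 of the combination), with slide as a block (adjusted p 0.0598) and with Agilent's processed signal scaled to the 75th percentile (adjusted p 0.0724). The other probe, at chr2:239174162-239174221 and well above background on all 18 arrays, gave 0.52 ± 0.07 for that comparison (adjusted p 0.000548) and also passed for Curcumin added to OXA in HT29 (0.46 ± 0.07, adjusted p 0.00754), where the brightest probe gave 0.34 (adjusted p 0.0951). In untreated cells the other probe was lower in HTOXAR3 by 0.58 on the log2 scale (-0.58 ± 0.07, adjusted p 0.000369), whereas the brightest one gave -0.16 (adjusted p 1). In HTOXAR3 no treatment comparison of PER2 was called with either probe.

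PER3 (probe at chr1:7863774-7863833, GRCh37) was called in no comparison. Its levels were 6.15 to 6.56 in untreated HT29, 6.34 to 6.42 with OXA and 6.77 to 6.88 with the combination, against 5.49 to 6.12 over the 9 HTOXAR3 arrays. Every HT29 array was thus above every HTOXAR3 array on this probe. On the other PER3 probe (chr1:7904641-7904700), well above background on 17 of 18 arrays, the lines overlapped, with HT29 arrays from 5.47 to 6.53 and HTOXAR3 arrays from 4.96 to 5.71, and no comparison was called. The mean SD within groups was 0.17, the largest of any member. The difference between untreated lines was -0.65 (95% interval -0.99 to -0.32), and that for Curcumin added to OXA in HT29 was 0.45 (0.11 to 0.79, adjusted p 0.986).

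In the receptor loop, NR1D1 (probe at chr17:38251199-38251258, GRCh37) read 9.68, 9.58 and 9.53 in untreated HT29, 9.70, 9.60 and 9.59 with OXA, and 9.99, 10.02 and 10.12 with the combination. In HTOXAR3 it read 9.38, 9.58 and 9.46, then 9.53, 9.65 and 9.77, then 10.25, 10.17 and 10.41. Untreated and OXA arrays overlapped in both lines and the combination stood above them. With Curcumin added to OXA, NR1D1 rose by 0.63 ± 0.08 in HTOXAR3 (SE, adjusted p 0.00125, 1.55-fold) and by 0.41 ± 0.08 in HT29 (adjusted p 0.0482, 1.33-fold). The HT29 value stood at the threshold: besides the loss without any 1 array, its adjusted p was 0.0811 with the replicate number as a block. Against untreated cells the combination gave 0.45 ± 0.08 in HT29, a call lost without replicate 3 of either group, and 0.80 ± 0.08 in HTOXAR3.

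NR1D2 (brightest probe at chr3:24021460-24021519, GRCh37) read 8.35, 8.54 and 8.72 in untreated HT29, 8.39, 8.32 and 8.40 with OXA, and 8.92, 8.80 and 8.85 with the combination. In HTOXAR3 it read 8.01, 7.93 and 8.28, then 7.83, 7.95 and 7.71, then 8.62, 8.54 and 8.62. The combination arrays were the highest of each line, and OXA arrays overlapped untreated ones. With Curcumin added to OXA, NR1D2 rose in HTOXAR3 by 0.76 ± 0.10 (SE, adjusted p 0.00149, 1.69-fold), and in HT29 the difference was 0.49 ± 0.10 (adjusted p 0.0615). The other probe with signal on all 18 arrays (chr3:24020698-24020757) was called in both lines, at 0.63 ± 0.09 in HTOXAR3 (adjusted p 0.0027) and 0.47 ± 0.09 in HT29 (adjusted p 0.0371). Against untreated HTOXAR3 the combination gave 0.51 ± 0.10, a call lost on leaving out any 1 of 4 of the 6 arrays (replicates 1 and 2 of untreated, replicates 1 and 3 of the combination), and 0.62 ± 0.09 with the other probe. Against untreated HT29 the other probe was called (0.48 ± 0.09, adjusted p 0.0103) and the brightest was not (0.32 ± 0.10, adjusted p 0.306). The remaining NR1D2 probe was well above background on 6 of 18 arrays, and with all 3 probes averaged both HTOXAR3 calls were lost (adjusted p 0.276 for Curcumin added to OXA and 0.15 for the combination).

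**Figure D3:**
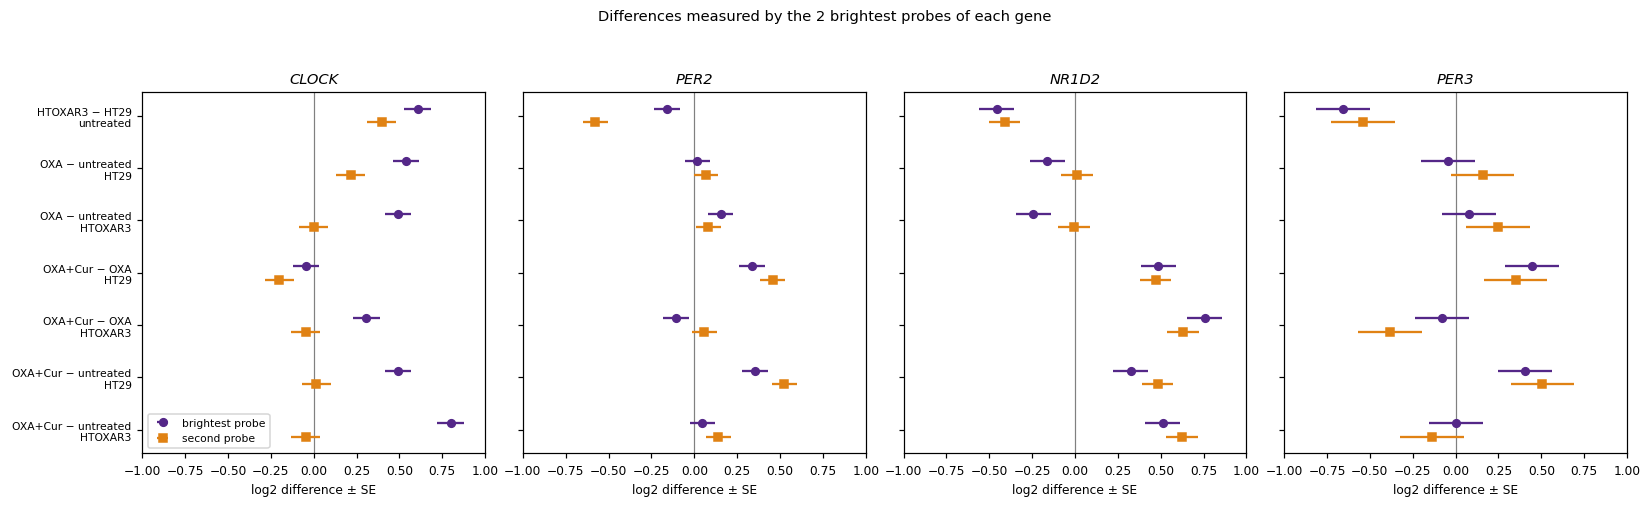
Log2 difference with its SE (horizontal axis) in the 7 comparisons for CLOCK, PER2, NR1D2 and PER3, each measured by its brightest probe (circles) and its second brightest probe (squares). For CLOCK the squares lie near 0 under treatment in HTOXAR3 while the circles lie between 0.31 and 0.80, and for NR1D2 both probes lie to the right of 0 wherever Curcumin was present.

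The output factor DBP, a D-box activator (probe at chr19:49136746-49136805, GRCh37), had the largest difference of any member in a comparison. It read 7.51, 7.71 and 7.93 in untreated HT29, 8.29, 8.40 and 8.57 with OXA, and 8.90, 8.88 and 9.28 with the combination. The HTOXAR3 values were 7.79, 7.86 and 7.84, then 8.19, 8.21 and 8.20, then 8.47, 8.60 and 8.59. In both lines the 3 groups did not overlap, from untreated through OXA to the combination. The combination gave 1.30 ± 0.12 in HT29 (SE, adjusted p 1.1e-05, 2.46-fold) and 0.72 ± 0.12 in HTOXAR3 (adjusted p 0.00277, 1.65-fold). The OXA step was 0.70 ± 0.12 in HT29 (adjusted p 0.00385) and 0.37 ± 0.12 in HTOXAR3 (adjusted p 0.421). The Curcumin step was 0.60 ± 0.12 in HT29 (adjusted p 0.0375) and 0.35 ± 0.12 in HTOXAR3 (adjusted p 0.616).

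Whether the lines responded differently was tested by the difference between their responses. By limma with the Benjamini-Yekutieli adjustment, 0 of the 10 members was called for OXA (1.01% of all gene names and 1.96% of detected ones called), for Curcumin added to OXA (0.135 and 0.258%) or for the combination (0.856 and 1.64%), and with the Benjamini-Hochberg adjustment the counts were also 0 (3, 0.892 and 3.44% of all gene names, and 5.72, 1.68 and 6.33% of detected ones). At an unadjusted p below 0.05 the members numbered 0, 5 and 6, against 13.7, 9.74 and 14.4% of all gene names and 21.7, 14.9 and 22.5% of detected ones. For DBP the response of HTOXAR3 to the combination minus that of HT29 was -0.58 (95% interval -0.93 to -0.22, adjusted p 0.896). For CRY2 it was -0.35 (-0.55 to -0.16, adjusted p 0.568), and for NR1D1 0.36 (0.11 to 0.61, adjusted p 1). For PER2 the Curcumin step differed by -0.44 (-0.67 to -0.21, adjusted p 0.86). The opposite signs of NR1D1 and CRY2 were thus estimates that failed the correction.

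A wider list of 39 clock genes, grouped by role, placed the members among their regulators and outputs. Of these, 28 were well above background on all 18 arrays, 3 on none and 8 on some, and 23 were called in at least 1 of the 7 comparisons, against 31.1% of all gene names. That is 59% of the list, and 58.5% of detected gene names were so called. Between untreated lines 3 of the 39 were higher and 4 lower (11.5% of all gene names and 21.5% of detected ones were called). The shares below are in the same order. With OXA, 5 rose and 6 fell in HT29 (15.9 and 31%) and 6 rose and 5 fell in HTOXAR3 (10.2 and 20%). With Curcumin added to OXA, 3 rose and 1 fell in HT29 (5.53 and 10.9%) and 2 rose and 3 fell in HTOXAR3 (8.83 and 17.3%). With the combination, 5 rose and 9 fell in HT29 (18.6 and 35.6%) and 5 rose and 7 fell in HTOXAR3 (17.5 and 33.4%). The median difference over the list lay between -0.08 and 0.02 in all 7 comparisons. Under treatment the list thus held called genes of both directions, while called members were all higher.

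The E-box repressors BHLHE40 and BHLHE41 (DEC1 and DEC2) were called in opposite directions. BHLHE40 was 5.68 ± 0.31 in untreated HT29 (SD, n = 3), 6.43 ± 0.09 with OXA and 7.31 ± 0.06 with the combination, and it rose by 1.63 with the combination (adjusted p 1.4e-05) and by 1.09 in HTOXAR3 (adjusted p 0.000666). BHLHE41 was 13.62 ± 0.05 in untreated HT29, 12.34 ± 0.02 with OXA and 12.58 ± 0.27 with the combination. It fell by 1.27 on the log2 scale with OXA in HT29 (adjusted p 9.0e-06) and by 0.87 in HTOXAR3 (adjusted p 0.000711). NPAS2, a relative of CLOCK that can also pair with ARNTL, was higher by 0.51 in untreated HTOXAR3 and fell by 0.75 with the combination in HT29 (adjusted p 0.000724) and by 0.57 in HTOXAR3 (adjusted p 0.00835).

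Among the D-box factors related to DBP, TEF rose with Curcumin added to OXA by 0.85 in HT29 (adjusted p 0.000314) and by 0.47 in HTOXAR3 (adjusted p 0.0216), with OXA alone at -0.07 and -0.31, not called. HLF was dim: it was well above background on 2 of 3 untreated HT29 arrays and on no HT29 array with either treatment, and its call for the combination in HT29 is a bound, at least 1.85-fold lower (adjusted p 0.0332). RORA, the activator that competes with the NR1D receptors for their element, was well above background on no HT29 array, on 1 of 3 untreated HTOXAR3 arrays and on all 6 treated HTOXAR3 arrays. It was called higher in untreated HTOXAR3 than HT29 without drug (adjusted p 0.00144), but no fold is given, since most arrays of both groups were not well above background. Within HTOXAR3 it was also called higher with OXA (adjusted p 0.0168) and with the combination (adjusted p 0.00277), at mean levels of 5.04 without drug, 6.18 with OXA and 6.37 with the combination. The HLF bound sets the mean of the brighter group against the lowest signal well above background on each array of the dim group, or that array's own HLF signal where higher.

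PRKAA1, the catalytic AMPK subunit that marks cryptochromes for degradation, was lower in untreated HTOXAR3 by 1.07 on the log2 scale (-1.07, adjusted p 1.4e-06) and fell with OXA in HT29 by 0.91 and in HTOXAR3 by 0.52. CCRN4L (NOCT, or Nocturnin, a rhythmic phosphatase) rose with the combination by 1.10 in HTOXAR3 (adjusted p 0.000183) and by 0.64 in HT29 (adjusted p 0.0183). Of the PER complex partners, WDR5 and SFPQ fell with OXA and with the combination in both lines, and NONO fell with the combination in both. The called kinases and ligases included GSK3B, HUWE1 and CSNK1E, all higher under treatment where called. Of the outputs, WEE1, a kinase that holds cells back from mitosis, was lower in untreated HTOXAR3 and fell in all 4 comparisons of a treatment with no drug, while NAMPT was higher in untreated HTOXAR3 and rose there with OXA. TIMELESS rose with OXA in HT29 and fell with Curcumin added to OXA in both lines. RORB, KLF10, PPARA and DDB1 were called in 1 comparison each.

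**Figure D4:**
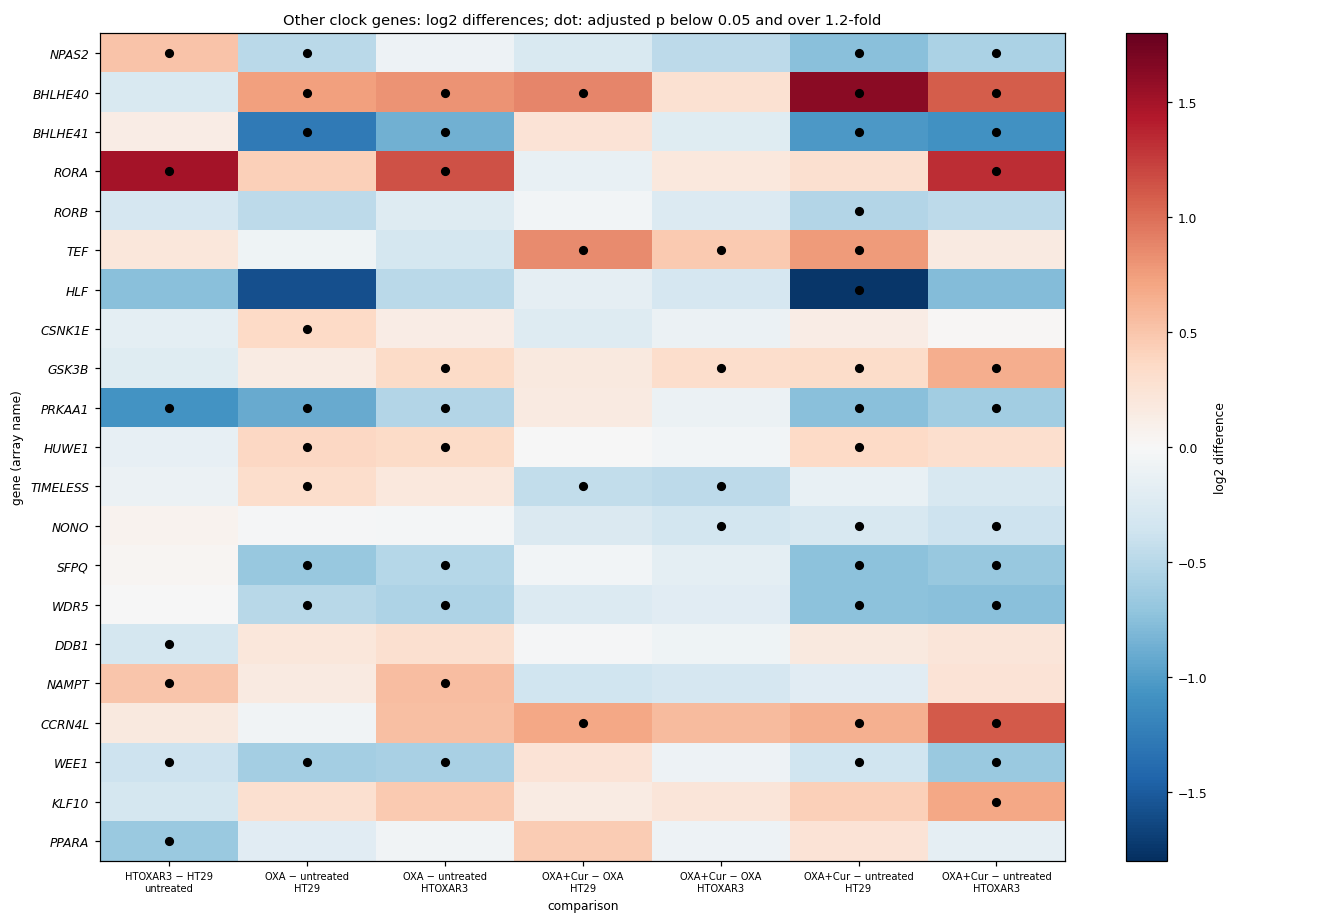
Log2 difference (colour) of 21 of the 23 genes of the wider clock list that were called in at least 1 of the 7 comparisons (columns), with a dot where the gene was called. BHLHE40 (red) and BHLHE41 (blue) carry dots in every OXA and combination column, and TEF carries dots in both columns where Curcumin was added to OXA.

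For the 5 members whose group means spanned at least 1 on the log2 scale, the gene names with the most similar pattern were sought among 17462 well above background on all 18 arrays, by the root mean square difference of centred log2 levels over those arrays. CLOCK was closest to INTS6 (0.0964), XLOC_012754 and ZNF410, and CRY1 to TSPAN4 (0.138), SPIRE1 and FGD3. DBP was closest to SMPDL3A (0.163), ARAP3 and SPSB2, NR1D2 to RIPK3 (0.105), BSDC1 and PPAPDC1B, and PER3 to TRIM5 (0.145), TMPRSS4 and ADPRHL1. These distances compare with SDs over the arrays of 0.470 for CLOCK, 0.508 for CRY1, 0.468 for DBP, 0.363 for NR1D2 and 0.445 for PER3. No member was among the nearest genes of another.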

How the data were processed

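Total RNA was labelled with Cy3 and hybridized to one-colour Agilent arrays, and the authors deposited spot intensity values for each array per the file headers, together with a table of log2 values whose 36204 lines carry numbers and no names. Those numbers were not spot numbers (on 1 array, the table's log2 values and the log2 intensities of the spots so numbered had a correlation of -0.0005), so the deposited log2 table was used for no result. From the deposited intensity files, gMeanSignal was corrected against gBGMedianSignal by normexp (offset 0), control spots were dropped, arrays were quantile normalized, spots flagged as outliers were set missing, spots of a probe were averaged, and the brightest probe stood for each gene name (limma 3.58.1, R 4.3.3). The lowest value of the authors' table, 5.65, equals the lowest obtained here with an offset of 50, which was run as an alternative.

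limma was fitted with 1 term per group to all 18 arrays, with calls at a Benjamini-Yekutieli adjusted p below 0.05 and a fold above 1.2, as in the study's methods. The number of arrays limits the precision. Alternatives were offsets of 16 and 50, averaging a gene's probes, scaling Agilent's processed signal or normexp values by the 75th percentile, a filter on dim genes, the Benjamini-Hochberg adjustment, a 2-fold minimum, only the arrays compared, slide or replicate number as a block, values within a slide, other probes, and leaving out each array. The arrays came from 3 slides, as read from a number in each array's deposited name. Slide 1 held only replicate 1 of untreated HT29 and replicate 1 of HT29 with OXA, so slide and group were partly confounded. Same-numbered arrays deviated together in OXA against untreated HT29 (correlations 0.117, 0.132 and 0.242) and in Curcumin added to OXA in HTOXAR3 (0.195, 0.109 and 0.187), where same-numbered arrays shared a slide. The main fit took no replicate numbers as pairs, there or elsewhere. Replicate number as a block was run only as an alternative, for every comparison alike.

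All 10 members were named in every comparison. Of the wider clock list, values were given for the 8 genes with the largest called difference. For members spanning at least 1 on the log2 scale, the 3 nearest genes were named. Other called genes of the list were named after their values were seen, and 2 of its called genes are counted but not reported here by name. The members and lists were chosen with earlier results of these data known. The scripts were tested on simulated data. Promoters were RefSeq entries (GRCh38.p14), and probe positions came from the array files (GRCh37). Exons and UTRs were not assigned to the probes, since no annotation of that build was used here.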

Additional observations from a re-analysis of the deposited data

How the results depend on the processing

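Of the 30 called values, none changed sign under the 11 alternative settings run on all members, and in 11 of 770 recomputations of the 70 uncalled values, interactions included, the sign changed, for values of at most 0.24. Measured by the other probe instead, no CLOCK rise under treatment was called. That probe gave -0.00041 with OXA and -0.047 with the combination in HTOXAR3, and 0.015 with the combination in HT29, all below their SE in size. With OXA in HT29 it gave 0.22. The number of members called moved from 3 to 5 between untreated lines with an offset of 50 or the Benjamini-Hochberg adjustment (which also moved it from 4 to 6 and 4 to 5 for added Curcumin in HT29 and HTOXAR3, from 2 to 3 for OXA in HTOXAR3 and from 7 to 8 for the combination in HT29), and from 2 to 1 for OXA in HTOXAR3 with the mean of all probes. That mean also ended the calls of ARNTL between untreated lines, of NR1D1 with added Curcumin in HT29, of CLOCK with the combination in HT29 and of NR1D2 in HTOXAR3 with added Curcumin and with the combination, and it called PER2 lower between untreated lines and higher with added Curcumin in HT29. Over the 7 comparisons an offset of 50 gave 5 new calls, an offset of 16 gave 2 and the filter on dim genes gave 2, and none of these settings lost a call. A 2-fold minimum left 1 member for the combination in HT29 (DBP) and 0 in the other 6 comparisons. Fits to only the arrays compared left 0 members in the 5 comparisons between untreated lines, with OXA and with added Curcumin, and 2 for the combination in HT29. Leaving out 1 array gave 2 to 4 members between untreated lines, 3 for OXA in HT29, 2 for OXA in HTOXAR3, 2 for added Curcumin in HT29, 4 for added Curcumin in HTOXAR3, 5 to 7 and 6 to 7 for the combination, and 0 for the interactions. The cause of these changes was not tested, other than that fewer arrays leave fewer degrees of freedom. Calls lost without 1 array were those of CRY1 between untreated lines, of NR1D1 and DBP with added Curcumin in HT29, of CRY1, NR1D1 and PER2 with the combination in HT29, and of NR1D2 with the combination in HTOXAR3.

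With the replicate number as a block, NR1D1 with added Curcumin in HT29 kept its value of 0.41 and its adjusted p went to 0.0811. The block changed no other call among the 70 values. With values scaled to the 75th percentile, both ways, NR1D1 with added Curcumin in HT29 lost its call, while NR1D2 there and PER3 between untreated lines gained one. With slide as a block, PER2 with the combination in HT29 lost its call. Within single slides, all called values kept their sign. The number differing from the full fit by at least the gene's within-group SD was 1 on slide 1, 7 on slide 2 and 6 on slide 3. The numbers differing by less were 2, 23 and 24 in the same order. Over the 7 comparisons the median difference of all genes ran from -0.19 to 0.09 with Agilent's processed signal scaled to the 75th percentile and from -0.17 to 0.06 with normexp so scaled, against -0.03 to 0.01. The deposited log2 table could not be run as an alternative, because its lines carry no names. Probes near background (HLF, RORA, the other ARNTL probe) give at most a bound.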
